A study of Drosophila melanogaster with 4 samples.

Results

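The wide H3K9me1 domains are the clusters of the deposited combined list that span at least 7000 bp. They were chosen by width alone (end minus start plus 1), on any sequence, and number 463 of the 13114 clusters in that list; the other 12651 are called narrower clusters below. The list comes from chromatin immunoprecipitation followed by sequencing (ChIP-seq) of whole Drosophila melanogaster embryos, aged 14 to 16 h, of the wild-type strain Oregon-R. The study has 2 ChIP samples, for which the H3K9me1 antibody came from a new lot, and 2 input samples of the same strain and stage. A cluster is a region that the authors called as enriched, with the input of the same number as the stated control of each replicate list. All values below are of the ChIP samples; the inputs were not analysed separately here, so no value has a separately measured background. The read depth behind the clusters is unknown. Whole embryos mix all tissues, and a region marked in few cells cannot be told apart from one marked weakly in many.

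H3K9me1 is histone H3 carrying a single methyl group on lysine 9. In the fly this residue is methylated by enzymes that include Su(var)3-9, G9a and eggless, and the mark with a single methyl group is a substrate for further methylation. The higher methylation states are bound by heterochromatin protein HP1 and are best known from broad domains around the centromeres and along the small chromosome 4.

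Wide domains made up 3.53% of the clusters of the combined list and held 14.1% of its bases, 4.60 Mb, which is 3.29% of the 139.7 Mb examined. Their median width was 8965 bp, with quartiles at 7762 and 10932 bp, against a median of 1820 bp for narrower clusters. The widths tailed off without a gap at the threshold. The 3 members just inside it spanned 7006, 7008 and 7012 bp, with scores of 0.78, 0.93 and 0.54, and the 3 clusters just outside it spanned 6998, 6998 and 6989 bp, with scores of 0.70, 0.56 and 0.96. At the other end, 31 domains reached 15000 bp or more. The 10 longest spanned 20008 to 32799 bp, and 4 of them lay on X, 2 each on 2R and 2L, and 1 each on 3R and 2RHet, part of the heterochromatic scaffolds of that arm.

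Domains this wide were rare in single replicates. Replicate 1 held 5480 clusters, of which 44 were at least 7000 bp wide, and all 44 touched a wide domain of the combined list. Replicate 2 held 6062 clusters, of which 112 were that wide, and 111 of them touched a wide domain. The widest single cluster was 12527 bp in replicate 1 and 16749 bp in replicate 2, both narrower than the longest combined domain. Because the combined list covers the same 2 samples, the replicate lists are no independent evidence for it. The smallest two-sided p that 2 samples allow in an exact sign-flip permutation test is 0.5, so replicate values are given with their spread and without a test. Whether the replicates are separate embryo collections is not stated, so their spread may be technical. Width chose the members, and the widths and scores below are descriptions.

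All 13 sequences that hold clusters held at least 1 wide domain. X had 168, or 7.49 per Mb, against 223 on the 4 autosomal long arms together, or 2.31 per Mb, a ratio of 3.25. Clusters of any width differed less, with 132 per Mb on X and 90.5 per Mb on the autosomal long arms, a ratio of 1.45. Of the clusters on X 5.69% were wide, against 2.55% of those on the autosomal long arms. Among single autosomal arms the density of wide domains was 2.79 per Mb on 2R, 2.69 on 2L, 2.44 on 3L and 1.51 on 3R. The heterochromatic scaffolds of the autosomes were richer in wide domains than their arms, with 19 on 2RHet (5.78 per Mb), 16 on 3RHet (6.36 per Mb) and 12 on 3LHet (4.70 per Mb), except 2LHet, which had 1 (2.71 per Mb, near the value of its arm). Chromosome 4 had 7 (5.18 per Mb), U, the unplaced scaffolds, 14 (1.39 per Mb), YHet 2 and XHet 1.

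Along the long arms wide domains were unevenly placed. Of 97 windows of 1 Mb on the autosomal long arms, 21 held no wide domain, the median held 1 and the fullest held 14. Of 22 windows on X, 1 held none, the median held 7 and the fullest held 17. That window ran from 5000001 to 6000000 on X, and the next, from 6000001 to 7000000, held 15. The 2 fullest autosomal windows, with 14 wide domains each, ran from 22000001 to 23000000 on 2L and from 1000001 to 2000000 on 2R; both lie near the centromere of their arm. These 4 windows held 103, 136, 104 and 103 narrower clusters, in the order given, and the long-arm window with the most narrower clusters, 154 on X from 13000001 to 14000000, held 6 wide domains.

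The score that the authors deposited for each cluster was higher in wide domains than in narrower clusters. Read as a log2 ratio, the median score was 0.70 in wide domains (1.63-fold) and 0.50 in narrower clusters (1.42-fold). The quartiles were 0.63 and 0.79 in wide domains and 0.45 and 0.58 in narrower clusters, and the SD across clusters was 0.13 and 0.22, so which set varied more depends on the measure: narrower clusters had the longer tail and the closer quartiles. Of the wide domains, 456, or 98.5%, scored above the median of narrower clusters. Most of the longer narrower clusters did so too: their lower quartile was 0.56 at 5000 to 6999 bp and 0.52 at 3000 to 4999 bp. Scores of wide domains ran from 0.43 to 1.28, those of narrower clusters from 0.18 to 3.56. The extreme scores belonged to narrow clusters: 177 narrower clusters scored above the highest wide domain. They spanned 1110 bp at the median, and 101 lay on U. Score and width come from the same called rows, so these values describe the list and no test was made.

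**Figure D1:**
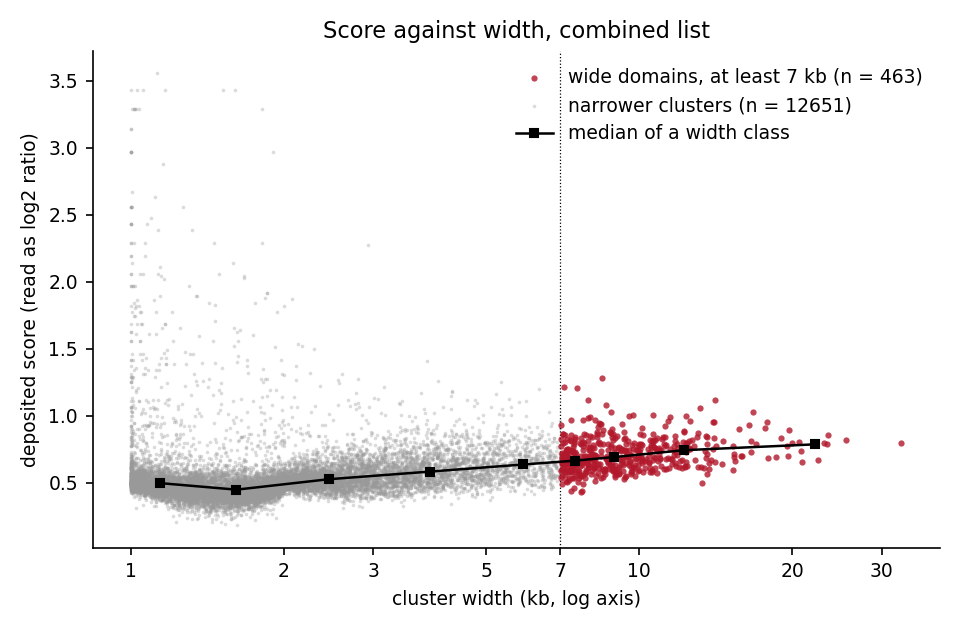
Deposited score (read as log2 ratio) against width in kb (log axis) for 463 wide domains (red) and 12651 narrower clusters (grey) of the combined list. Black squares are medians of 9 width classes, placed at the geometric middle of each class, and the dotted line marks 7 kb; the median is 0.67 just above it and 0.79 in domains of 15000 bp or more, while scores above 1.28 occur only to its left.

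Scores of wide domains were also higher in wider classes, by small steps. The median score was 0.67 in the 144 domains of 7000 to 7999 bp, 0.69 in the 156 of 8000 to 9999 bp, 0.74 in the 132 of 10000 to 14999 bp and 0.79 in the 31 of 15000 bp or more, against 0.64 in the 624 narrower clusters of 5000 to 6999 bp. Across all 463 domains Spearman's rho of score and width was 0.24 and Pearson's r 0.20. Without the 2 domains farthest from the median width they were 0.23 and 0.20. These coefficients describe domains called in the same libraries, which are not independent replicates. By arm, rho was 0.49 on 3R (42 domains), 0.30 on X (168), 0.23 on 2R (59), 0.20 on 3L (60) and 0.01 on 2L (62). On 2L the sign turned without the 2 farthest domains (-0.05). Among narrower clusters rho depended on the smallest width taken in: it was 0.31 over all 12651, 0.56 over the 9577 of at least 1301 bp and 0.25 over the 2520 of at least 3000 bp.

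The median score of wide domains was highest on YHet (0.99, 2 domains), XHet (0.78, 1 domain), U (0.78, 14 domains) and X (0.77, 168 domains). On the autosomal long arms together it was 0.67, and on chromosome 4, the lowest of the 13, 0.60. Wide domains scored above the narrower clusters of the same sequence by 0.21 on X and by 0.16 to 0.21 on single autosomal long arms. The same difference was 0.08 over chromosome 4, the heterochromatic scaffolds and U together. Singly it was 0.14 on chromosome 4, 0.02 on YHet and 0.09 to 0.13 on the other heterochromatic scaffolds. On U alone it had the other sign, with 0.78 in wide domains and 0.83 in narrower clusters.

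The highest score of a wide domain, 1.28 (2.43-fold), belonged to U from 5103473 to 5111931 (8459 bp), of which replicate 1 covered 23.7% and replicate 2 77.8%. The next was 2L from 5012438 to 5019557, only 7120 bp wide, with a score of 1.22; it was 1 piece in each replicate, with 88.0% and 95.9% covered in replicates 1 and 2. The others among the 5 highest were U from 2774109 to 2781663 (1.21), 3R from 27521042 to 27535168 (1.12) and YHet from 51254 to 59169 (1.12). The YHet domain was absent from replicate 1 and covered over 71.5% in replicate 2, where its best piece scored 1.82. At the low end, 3R from 7657902 to 7665590 scored 0.43 (1.35-fold), with 19.9% covered in replicate 1 and 42.0% in replicate 2 and only 2.05% covered in both. The other 4 of the 5 lowest were 3LHet from 985720 to 993063 (0.44), 3R from 10540232 to 10547947 (0.44), 3R from 19785551 to 19792996 (0.46) and 2L from 21607510 to 21614551 (0.49). All 5 were under 8000 bp wide, and replicate 2 missed the second of those on 3R and replicate 1 the third.

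Wide domains were nearly all seen in both replicates. Clusters of both replicates touched 456 of 463, or 98.5%, by at least 1 bp, against 2662 of 12651 narrower clusters, or 21.0%, and 23.8% of all combined clusters. No wide domain was untouched by both, whereas 48.9% of narrower clusters were. The narrower clusters include 3074 that are shorter than the smallest replicate cluster, 1301 bp, and none of these was touched by both. A wide region offers more bases to touch, and the share climbed with width throughout the list: it was 31.1% at 2000 to 2999 bp, 61.5% at 3000 to 4999 bp, 88.5% at 5000 to 6999 bp, 95.1% at 7000 to 7999 bp and 100% in each class from 8000 bp up. Under a stricter rule, each replicate covering at least 50% of the cluster, 289 wide domains (62.4%) and 1826 narrower clusters (14.4%) passed, against 16.1% of all combined clusters. The 7 domains that a replicate missed were 7152 to 7916 bp wide. Replicate 1 missed 5, which were 2 on X, 1 on 2R, 1 on 3R and the YHet domain above; replicate 2 missed 2, both on 3R.

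Per base, the replicates covered wide domains more fully than narrower clusters. Replicate 1 covered 60.9% and replicate 2 72.6% of the bases of wide domains (mean 66.7% ± 8.3, SD, n = 2), against 32.0% and 39.2% of those of narrower clusters (35.6% ± 5.1). The gap between the means was larger than either spread. Width bears on this contrast too, because the smallest replicate cluster was 1301 bp. The 3074 narrower clusters shorter than that were covered at 3.90% in replicate 1 and 3.27% in replicate 2. The 4433 narrower clusters of 1301 to 1999 bp were covered at 16.5% and 21.2%. Of the bases of wide domains, 50.3% were covered in both replicates, 32.9% in a single one and 16.8% in neither; of those of narrower clusters, 18.2%, 34.8% and 47.0%. Coverage was graded within wide domains too. In replicate 1 it was 56.9% at 7000 to 7999 bp, 59.1% at 8000 to 9999 bp, 64.4% at 10000 to 14999 bp and 63.0% at 15000 bp or more, against 54.0% in narrower clusters of 5000 to 6999 bp. In replicate 2 it was 66.5%, 71.5%, 75.3% and 79.1% in the same classes of wide domains, against 63.5%. Single domains varied widely: the middle 50% of them were covered over 46.4% to 76.4% in replicate 1 and over 60.8% to 85.5% in replicate 2. Domains with a higher score were covered more fully, with a rho of 0.49 in replicate 1 and 0.53 in replicate 2 across 463 domains, a description since the score was made from the same reads.

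The replicates broke most wide domains into several clusters, here called pieces. A replicate cluster that overlapped a domain by at least 1 bp counted as a piece of it. Replicate 1 had a single piece in 154 domains, 2 in 197, 3 in 76, 4 in 26, 5 in 3 and 6 in 2, and none in 5. Replicate 2 had a single piece in 175, 2 in 193, 3 in 78, 4 in 13 and 5 in 2, and none in 2. Both replicates thus had 2 pieces at the median, with means of 1.96 and 1.85 (1.90 ± 0.08, SD, n = 2). Of the domains 63.7% ± 2.7 were in 2 or more pieces, against 2.51% ± 0.03 of narrower clusters. Width bears on this contrast directly, because the smallest replicate cluster was 1301 bp and a cluster near the narrower median of 1820 bp cannot hold 2 whole pieces. The share was 45.8% in replicate 1 and 47.2% in replicate 2 at 7000 to 7999 bp, against 33.3% and 31.6% in narrower clusters of 5000 to 6999 bp. Among clusters touched at all, the shares were 64.2% ± 3.1 of wide domains and 6.99% ± 0.64 of narrower clusters.

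**Figure D2:**
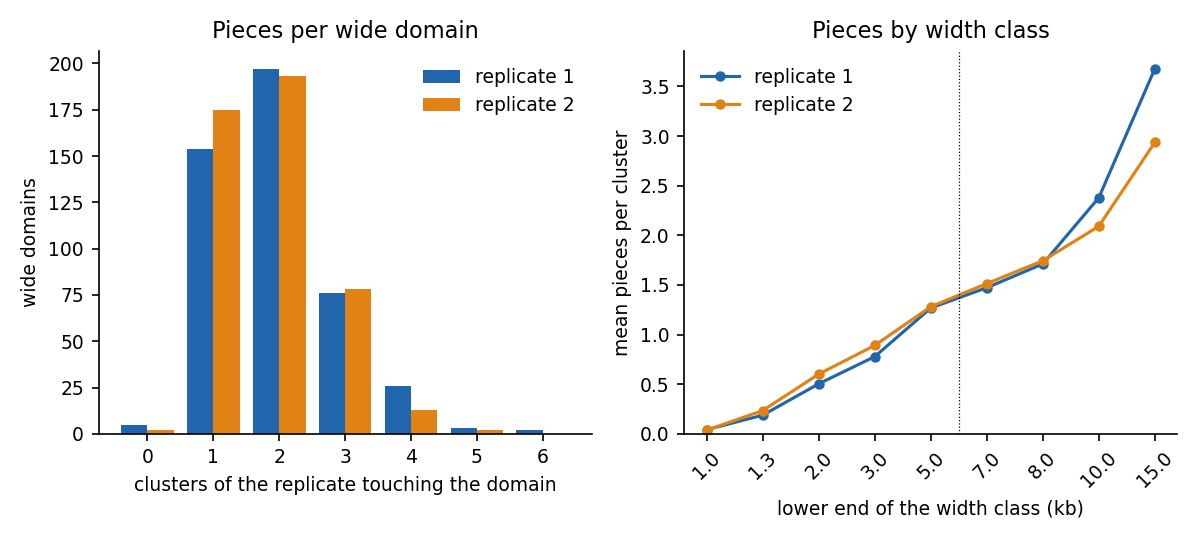
Left, number of wide domains (of 463) by the number of replicate clusters that touch them, in replicate 1 (blue) and replicate 2 (orange). Right, mean pieces per combined cluster by width class, with the lower end of each class in kb; wide domains stand right of the dotted line, where the mean climbs to 3.68 in replicate 1 and 2.94 in replicate 2 at 15 kb or more.

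The number of pieces grew with width, from 1.49 ± 0.03 per domain at 7000 to 7999 bp to 3.31 ± 0.52 at 15000 bp or more (SD, n = 2). Per 10 kb there were 1.97 pieces in wide domains and 1.63 in all narrower clusters in replicate 1, and 1.86 in both in replicate 2. The narrower average takes in clusters below 2000 bp, which had fewer pieces per 10 kb than longer narrower clusters in each replicate. Narrower clusters of 2000 to 2999, 3000 to 4999 and 5000 to 6999 bp had 2.08, 2.04 and 2.17 in replicate 1. In replicate 2 these classes had 2.48, 2.34 and 2.19. Against each of these classes, wide domains had fewer pieces per 10 kb in both replicates. The replicates parted in the widest class, where replicate 1 had 1.93 and replicate 2 1.54 pieces per 10 kb. In that class all 31 domains were broken in replicate 1 (100%) and 93.5% in replicate 2. Spearman's rho of width and number of pieces was 0.53 in replicate 1 and 0.40 in replicate 2 (463 domains). The median length of a piece inside the domain was 2386 bp in replicate 1 and 3013 bp in replicate 2, and the largest piece held a median of 38.0% and 48.6% of the domain. The clusters that overlapped wide domains had a median width of 2707 bp ± 453 and a median score of 0.79 ± 0.01, against 1850 bp ± 72 and 0.71 ± 0.03 for those that overlapped narrower clusters (SD, n = 2). The width difference is largely set by the lists. Of the replicate bases, 97.7% in replicate 1 and 98.4% in replicate 2 lay inside combined clusters. A replicate cluster is therefore seldom much wider than the combined cluster it overlaps.

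The breaks between pieces were short. Replicate 1 had 449 breaks with a median of 812 bp, and 58.1% were at most 1000 bp; replicate 2 had 396 with a median of 620 bp, and 65.2% were at most 1000 bp. The longest were 8533 bp and 4959 bp. The replicates often broke a domain differently. The number of pieces was equal in 197 domains (42.5%), larger in replicate 1 in 151 and larger in replicate 2 in 115, and differed by at most 1 in 416 (89.8%). Both had a single piece in 83 domains and both had 2 or more in 212. A cluster of replicate 2 bridged 50.1% of the breaks of replicate 1 from end to end, and a cluster of replicate 1 bridged 28.4% of those of replicate 2. Of the bases in the breaks of replicate 1, 31.9% lay outside the clusters of replicate 2, against 19.4% of bases in the 2 middle bins when each domain is cut into 10 equal bins. Of the bases in the breaks of replicate 2, 53.9% lay outside the clusters of replicate 1, against 33.4% in the 2 middle bins. Over all bases of wide domains the uncovered shares were 27.4% in replicate 2 and 39.1% in replicate 1.

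Coverage was lowest at the edges of the domains. Averaged over the 463 domains, the 2 outer bins were covered at 39.9% ± 6.2 and the 2 middle bins at 73.6% ± 9.9 (SD, n = 2). From the third to the eighth bin the mean stayed between 72.7% and 76.1%, a plateau rather than a peak. Narrower clusters of 3000 to 6999 bp had 25.8% ± 6.0 in their outer bins and 66.4% ± 8.1 in their middle ones, and their mean was highest in the sixth bin, at 66.7%. The bins scale with cluster width, and a piece of the smallest length, 1301 bp, fills more bins of a narrower cluster. Whether the difference in shape goes beyond width was not tested. Pieces rarely ran past the domain: 48 piece ends in replicate 1 and 75 in replicate 2 lay beyond an edge, with 0.232% and 0.946% of the bases of the pieces.

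**Figure D3:**
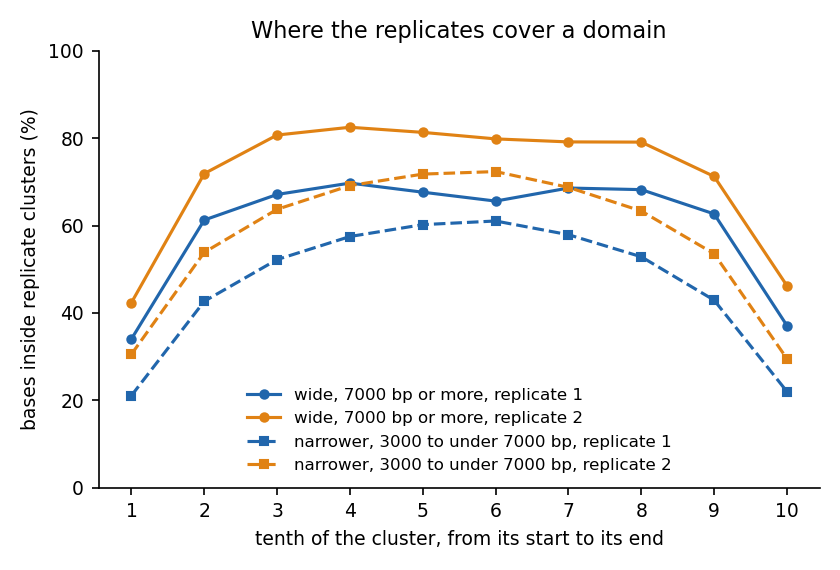
Percent of bases inside clusters of replicate 1 (blue) and replicate 2 (orange) in each of 10 equal bins of a cluster from its start to its end, averaged over 463 wide domains (solid lines) and over narrower clusters of 3000 to 6999 bp (dashed lines). Wide domains form a plateau from the third to the eighth bin, with means of 72.7% to 76.1%, and are covered at 38.2% and 41.7% in the outer bins.

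The longest domain, X from 16353456 to 16386254 (32799 bp, score 0.80), was 4 pieces in each replicate. In replicate 1 these were 2401, 3719, 5985 and 6524 bp long and scored 0.83 to 0.89; in replicate 2 they were 3285, 6413, 1629 and 16749 bp long and scored 0.76 to 0.95. The replicates covered 56.8% and 85.6% of it. All bases covered in replicate 1 were covered in replicate 2 as well (56.8% in both), and its nearest wide neighbour was 5725 bp away. The second, X from 17867086 to 17892613 (25528 bp, score 0.82), was 4 pieces in replicate 1 and 3 in replicate 2 and was covered at 80.7% ± 7.5. The third, X from 12194892 to 12218464 (23573 bp, score 0.86), again 4 and 3 pieces, was covered at 67.9% ± 8.9.

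Among the 10 longest, the number of pieces differed most between the replicates in the 2 domains of 2L. In 2L from 4493076 to 4513755 (20680 bp, score 0.81) replicate 1 had 6 pieces of 1333 to 4543 bp, and replicate 2 had 2, of 5070 and 14247 bp. In 2L from 22310271 to 22330278 (20008 bp, score 0.80) replicate 1 again had 6 pieces and replicate 2 had 2, with 68.4% and 96.6% covered. The most broken domain over both lists was X from 19697836 to 19720905 (23070 bp), with 5 pieces in each replicate. It was followed by X from 17830910 to 17847931 with 4 pieces in replicate 1 and 5 in replicate 2, and X from 6031421 to 6046775 with 5 and 4. The remaining domains among the 10 longest were 2R from 3216105 to 3239486 (4 and 4 pieces), 2R from 588291 to 610736 (4 and 3), 2RHet from 3051164 to 3072126 (4 and 4) and 3R from 25117423 to 25138268 (3 and 2).

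**Figure D4:**
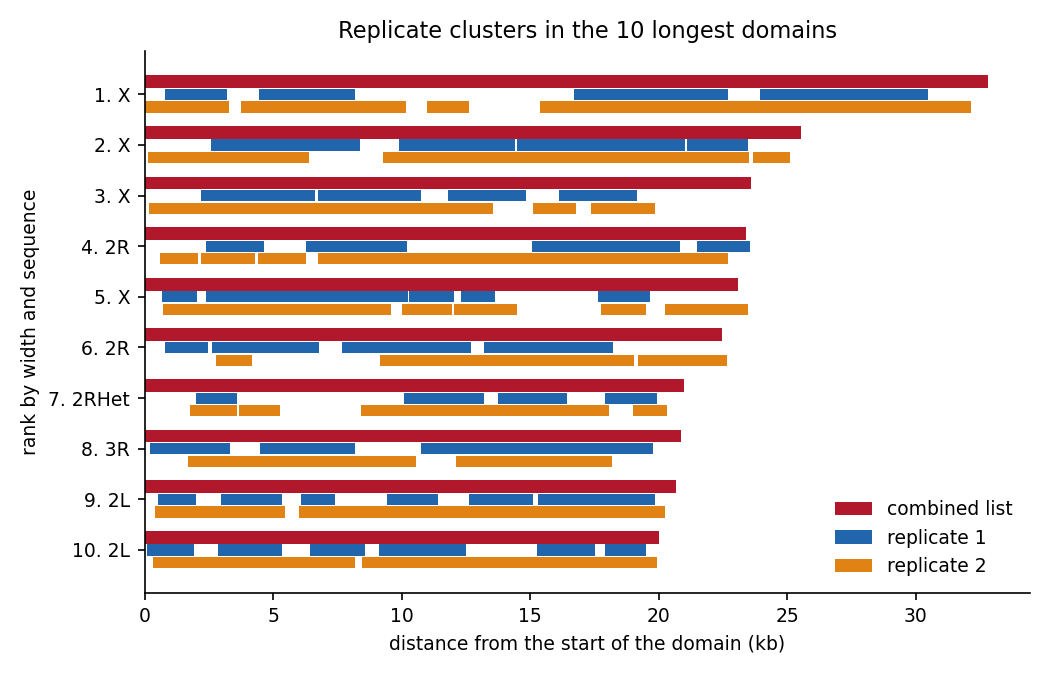
Map of the 10 longest wide domains, ordered by width and named by rank and sequence. The horizontal axis is the distance in kb from the start of the domain; red bars are the combined cluster, blue bars the clusters of replicate 1 and orange bars those of replicate 2. In both domains of 2L, 6 blue bars face 2 orange ones.

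Wide domains were mostly far apart, with a minority in tight clumps. The median gap to the next wide domain of the same sequence was 105268 bp over 450 gaps, with quartiles at 23430 and 310433 bp, a shortest gap of 12 bp and a longest of 3231295 bp. The median gap was 48694 bp on X and 179012 bp on the autosomal long arms. At the short end, 22 gaps were at most 1 kb, 54 at most 5 kb and 104 at most 20 kb. Narrower clusters, being more numerous, had a median gap of 3865 bp to the next narrower cluster. The cluster that followed a wide domain, whatever its width, began a median of 2099 bp away, against 3520 bp after a narrower cluster. These 2 medians pool all sequences and were not split by class. X, with 132 clusters per Mb against 90.5 on the autosomal long arms, held 36.3% of the wide domains. The 10 kb to each side of wide domains were 40.9% inside clusters of the combined list, against 28.1% for narrower clusters and 23.3% of the genome examined. This held in each of 3 classes of sequence: 46.9% and 37.3% for wide and narrower on X, 39.0% and 25.3% on the autosomal long arms, and 32.8% and 27.1% on the rest.

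Another wide domain lay within 20 kb of 174 wide domains (37.6%), and a wide domain lay within 20 kb of 2064 narrower clusters (16.3%), against 17.1% of all combined clusters. On X the shares were 48.2% of 168 wide domains and 28.6% of 2782 narrower clusters. On the autosomal long arms they were 35.4% of 223 and 11.2% of 8517. Over chromosome 4, the heterochromatic scaffolds and U together the order was the other way round. There the shares were 19.4% of 72 wide domains, or 14 of them, and 23.0% of 1352 narrower clusters. Singly, the share was higher for wide domains on chromosome 4 (28.6% against 24.0%), 3RHet (37.5% against 34.1%) and U (14.3% against 11.2%). It was lower on 2RHet (21.1% against 34.2%) and 3LHet (0% against 24.9%). XHet, 2LHet and YHet held only 1, 1 and 2 wide domains, none within 20 kb of another. As a ratio, the contrast was larger at short range. Within 5 kb it was 21.1% against 3.70% on the autosomal long arms and 26.2% against 10.5% on X, and within 100 kb 58.7% against 36.6% and 83.3% against 73.0%.

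**Figure D5:**
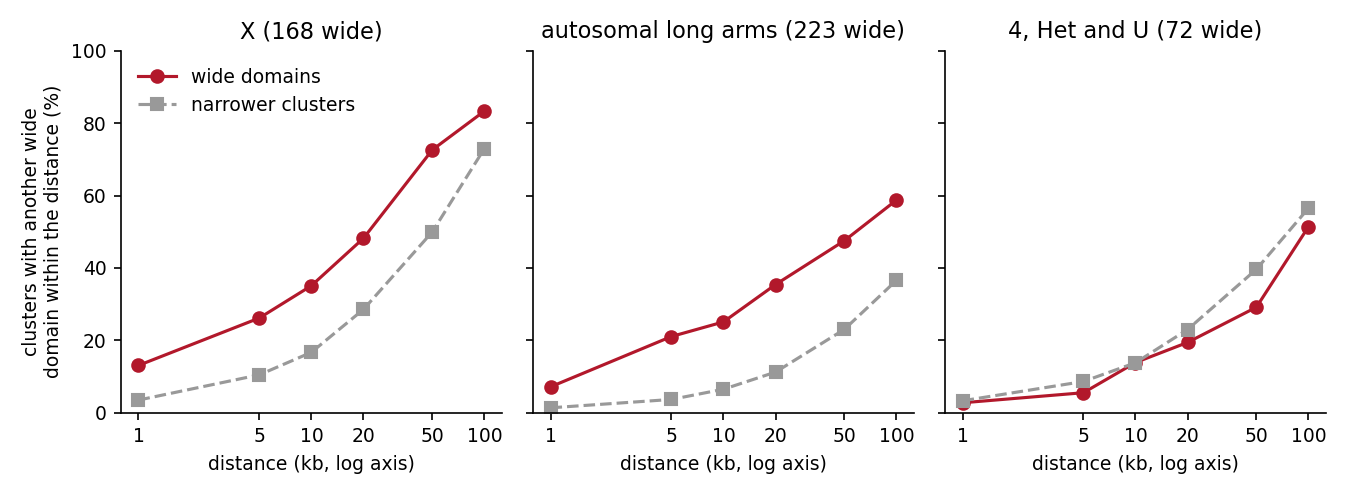
Percent of wide domains (red circles) and of narrower clusters (grey squares) with another wide domain within a given distance in kb (log axis), on X, on the autosomal long arms, and on chromosome 4, heterochromatic scaffolds and U. The red line lies above the grey one at every distance drawn on X and on the autosomal long arms; in the third panel, with 72 wide domains, it lies below except at 10 kb, where the values are 13.9% and 13.8%.

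Neighbours were also counted by order along the sequence. Of the clusters next to a wide domain 10.8% were wide themselves, against 3.26% of those next to a narrower cluster. The shares were 13.7% and 5.21% on X, 11.2% and 2.32% on the autosomal long arms, and 2.80% and 5.17% on the other sequences. Moving outward, 10.8% of the first clusters after a wide domain were wide, 6.94% of the second and 7.64% of the fourth. The share was 6.33% at the fifth, 6.80% at the seventh and 5.29% at the tenth, so it did not fall steadily. After narrower clusters it was 3.25% to 3.45%. These shares pool all sequences, and 5.69% of the clusters on X were wide against 2.55% on the autosomal long arms. The width of the next cluster otherwise tracked little of the width of the one before it: rho over all neighbouring clusters was 0.08, and the median next cluster was 2299 bp wide after a wide domain and 1844 bp after a narrower one.

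Runs of wide domains with gaps of at most 20 kb formed 70 clumps, which held 174 of the 463 domains: 51 clumps had 2 members, 11 had 3, 3 had 4, 3 had 5 and 2 had 6. On X lay 32 of the clumps, on the autosomal long arms 31 and on the other sequences 7. Domains in clumps scored 0.73 and spanned 9243 bp at the median, against 0.69 and 8837 bp for the 289 single ones. They were covered more fully in each replicate, at 62.8% against 59.6% in replicate 1 and 75.4% against 70.8% in replicate 2. Of the 174 domains in clumps 81 lay on X, where the median wide score was 0.77, against 0.67 on the autosomal long arms. Domains in clumps and single ones were not compared within a sequence. The largest clumps had 6 domains each. That on 2R ran from 1321918 to 1417702 (95.8 kb); its domains were 7085 to 13048 bp wide, scored 0.59 to 0.80 and left room for 7 narrower clusters. That on X ran from 5121706 to 5211943 (90.2 kb), with domains of 7079 to 12700 bp, scores of 0.67 to 1.01 and 5 narrower clusters. A further X clump of 4, from 16353456 to 16429245, began with the longest domain; wide domains filled 91.8% of its 75.8 kb.

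Some of these neighbours were separated by gaps as short as the breaks inside a domain. Of the 104 pairs within 20 kb, 50 had no narrower cluster between them, and 22 pairs were at most 1 kb apart. Replicate 1 bridged none of these 22 gaps and replicate 2 bridged 2, which were 215 bp on X and the 128 bp between 2 members of the 2R clump. Over all 104 gaps, replicate 1 covered 12.6% and replicate 2 17.1% of the bases, against 60.9% and 72.6% inside wide domains. This contrast is largely set by the lists. Of the bases of the replicate clusters, 97.7% in replicate 1 and 98.4% in replicate 2 lay inside clusters of the combined list. Little could therefore cover or bridge a gap outside the narrower clusters in it, and the values do not show that the neighbours are separate.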

How the data were processed

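Regions of enrichment were deposited as 3 lists, 1 per ChIP replicate and 1 combined list, on FlyBase release 5, per the file headers. The submitters' processing notes name Bowtie 0.12.7, a read aligner. The caller, its threshold and the making of the combined list: not given in the sources used here. The score was deposited by the authors without a stated scale. Raised as a power of 2 and divided by 1 constant per list, it gave a ratio of whole numbers (denominator up to 3000, relative tolerance 1e-11) for 99.97% of the combined clusters and 0.00763% after multiplication by pi, so it is read as a log2 ratio. Depth is unknown.

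Wide domains and the lists compared were chosen with earlier results of these data known. Named are the 10 longest, the 5 highest and 5 lowest scoring, the 3 with most pieces, the largest clumps and 3 clusters on each side of 7000 bp. Domains missed by a replicate and the fullest windows were named after their values were seen. Overlap and gap functions were checked on simulated intervals with known answers. Genes and sequences in the domains were not analysed here. Python 3.11.15, numpy 2.4.6, pandas 2.3.3, scipy 1.17.1 and matplotlib 3.10.9 were used.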

Additional observations from a re-analysis of the deposited data

How the results depend on the processing

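Each result was recomputed under the alternatives below, and the number of domains follows the threshold by construction. At a width of at least 5000 bp there were 1087 domains, rho of score and width was 0.29, a domain had 1.54 pieces, 92.7% were touched by both replicates, the median gap was 44408 bp, 53.4% had another within 20 kb (narrower clusters 32.7%) and 14.1% of adjacent clusters were wide (7.77%). At 10000 bp the values were 163 domains, 0.16, 2.44 pieces, 100% touched, 286977 bp and 24.5% within 20 kb (6.14%). With combined clusters joined over gaps of at most 500 bp there were 756 domains with 2.03 pieces, 57.2% of bases covered, 94.2% touched by both, a median gap of 59326 bp, 47.9% within 20 kb (23.3%) and 13.8% of adjacent clusters wide (6.25%). Among combined clusters scoring at least the median, 13.2% of adjacent clusters were wide (6.46%). With replicate clusters at or above the median score of their list, a domain had 1.32 pieces and 53.8% of its bases covered. Coverage of at least 50% by each replicate was met by 62.4% of domains. Another wide domain lay within 10 kb of 27.0% (narrower clusters 9.54%) and within 50 kb of 53.8% (30.7%), and the nearest on either side was a median of 43723 bp away. Separate classes of sequence were looked at after seeing the data. X alone gave 48.2% within 20 kb (narrower clusters 28.6%) and 13.7% of adjacent clusters wide (5.21%). Over chromosome 4, heterochromatic scaffolds and U together the contrast with narrower clusters reversed. The shares were 19.4% within 20 kb against 23.0%, and 2.80% of adjacent clusters against 5.17%. Within 20 kb the reversal was not seen on chromosome 4, 3RHet or U taken singly. The cause was not tested. Single replicates gave 1.85 to 1.96 pieces and 60.9% to 72.6% of bases covered. The excess on X kept its direction, at 2.68 to 3.76 over the width thresholds. No paired analysis was possible because the groups with shared numbers are ChIP and input, and input values were not analysed here. Wide and narrower clusters can be set side by side within a replicate, where coverage was 60.9% against 32.0% in replicate 1 and 72.6% against 39.2% in replicate 2. This contrast depends on width, as given above. Depth is unknown, so a break in a replicate is not shown to lack the mark.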
